A study of Mus musculus with 11 samples.

Results

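The transcripts of 9 genes for transcription factors, Myc, Mycn, Mycl1, Max, Mxd1, Sp1, Sp3, Pou5f1 and Esr1, were followed in HL-1 cardiomyocytes. HL-1 is a cell line from the atrium of an adult mouse. The genes were chosen because they encode regulators, or close relatives of regulators, that the study considered in its network analysis of exosome transcripts, and every probe that the platform annotation gave to 1 of them was taken, whatever its signal. This gave 12 of the 25697 probes on the MouseRef-8 Expression Beadchip, for 8 of the 16593 genes named on it, with 2 probes each for Myc, Max, Pou5f1 and Esr1 and 1 probe each for Mycn, Mycl1, Mxd1 and Sp1. No probe carried the symbol Sp3 in the annotation used, and no value is given for it. Mycl1 is listed as Mycl in current annotation.

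RNA of the cells was hybridized on 11 arrays. The TGF-β2-treated group (n = 4) received 10 ng/mL transforming growth factor beta 2 for 23 h, the PDGF-BB-treated group (n = 3) received 100 ng/mL platelet-derived growth factor BB for 23 h, and the control group (n = 4) received no growth factor. The growth factors were given in medium without serum and antibiotics. Each array held the RNA of 1 culture flask of this single cell line, and 1 more PDGF-BB cell array named in the design was not analysed here. The array labels place array sets 1 and 2 on chip 1 and array sets 3 and 4 on chip 2, an array set being the neighbouring positions of a chip. Set 1 held TGF-β2 1, PDGF-BB 1 and control 1, set 2 held TGF-β2 2 and control 2, set 3 held TGF-β2 3, PDGF-BB 2 and control 3, and set 4 held TGF-β2 4, PDGF-BB 3 and control 4. Between 11401 and 12455 probes per array had a detection p-value under 0.05, and the median probe was read on 34 to 38 beads. Of 13 cardiomyocyte marker genes with a probe, 12 were detected on all 11 arrays, among them Myl7, Nppa and Actc1, while the calcium release channel gene Ryr2 was detected on none. None of 10 fibroblast and none of 4 leukocyte marker genes was detected on all arrays, while 3 of 5 smooth muscle and 1 of 6 endothelial marker genes were. The smooth muscle markers summed to 51597 to 66635 signal units on TGF-β2 arrays, 57447 to 68393 on PDGF-BB arrays and 52615 to 61650 on control arrays, and the endothelial markers to 2298 to 3233, 2763 to 4267 and 2692 to 3619 in the same order. Myh11 and Cnn1 of the smooth muscle list and Cdh5, Tek and Vwf of the endothelial list were detected on no array. The part of these markers in the results was not tested. The fibroblast markers summed to 13.2 to 51.4 signal units on TGF-β2 arrays, 37.9 to 157 on PDGF-BB arrays and 19.4 to 77.1 on control arrays.

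MYC, the product of Myc, binds DNA as a dimer with MAX, preferentially at the E-box, and drives genes of ribosome production, nucleotide synthesis and growth. MYCN and MYCL are its paralogues. MXD1 competes for MAX and represses the same sites. SP1 and SP3 are zinc finger proteins that bind GC boxes in the promoters of many housekeeping genes. OCT-3/4, the product of Pou5f1, is a POU domain factor of the early embryo and of pluripotent cells, and Esr1 encodes oestrogen receptor alpha, a nuclear receptor that binds DNA on activation by its ligand. In cardiomyocytes, MYC is known as an early response gene of hypertrophic growth.

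The DNA elements that these factors are named for are shown here at the starts of Max and Sp1, the factors whose signals are followed in most detail beside Myc. The windows came from RefSeq on mouse build GRCm38.p6, from 250 bases before to 50 bases after an annotated start, and 8 of the 9 genes had 11 windows there, Sp3 included and Myc not. The E-box was searched as CACGTG, which reads the same on both strands, and the GC box as GGGCGG or its complement CCGCCC, with overlapping copies counted. The first sequence is chr12:76962234-76962263 on the minus strand, 15 bases on each side of an annotated Max start. That start lies inside the gene limits of 76937269 to 76962323, so it is not the outermost start of this minus-strand gene. The second sequence is chr15:102406066-102406315 on the plus strand, the 250 bases before the Sp1 start. Capitals mark the E-box in Max and the GC boxes in Sp1.
Max: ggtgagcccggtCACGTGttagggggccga
Sp1: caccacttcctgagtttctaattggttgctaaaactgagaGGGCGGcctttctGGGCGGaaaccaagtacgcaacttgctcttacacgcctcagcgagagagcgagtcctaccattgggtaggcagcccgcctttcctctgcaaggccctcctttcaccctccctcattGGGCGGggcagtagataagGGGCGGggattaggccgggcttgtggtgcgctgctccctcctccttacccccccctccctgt
The E-box was found in 1 of the 11 member windows, that of Max, and in 7.15% of all 32851 windows. The GC box was found in 7 of the 11 member windows and in 35.7% of all windows. The Mxd1 window held 6 copies, that of Sp1 4 and those of Sp3 5 and 2. The other windows with a GC box held 2 (Mycn) and 1 (Mycl1 and a Pou5f1 window). A match of letters is a description of the window and not evidence of binding.

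Most of the regulators were not detected. A detection p-value under 0.05 means that a probe was brighter than all but a small share of the negative control beads on its array. Of the 12 member probes, 8 (66.7%) had no such value on any array, while 40.1% of all probes had none. These 8 probes covered Mycn, Mycl1, Mxd1, both probes of Pou5f1, both of Esr1 and 1 of Myc. Their detection p-values ran from 0.0514 to 0.994 and their normalized signals from -24.1 to 31.1, where the lowest signal with detection was 28.1 to 40.4 depending on the array. A probe without signal would pass on 0.55 of 11 arrays on average. Only the 2 Max probes, on 11 and 10 arrays, and the probes ILMN_2623526 of Myc and ILMN_2616755 of Sp1, on 3 arrays each, passed at all. In such bulk RNA, fewer cells with a transcript and less of it per cell cannot be told apart.

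**Figure D1:**
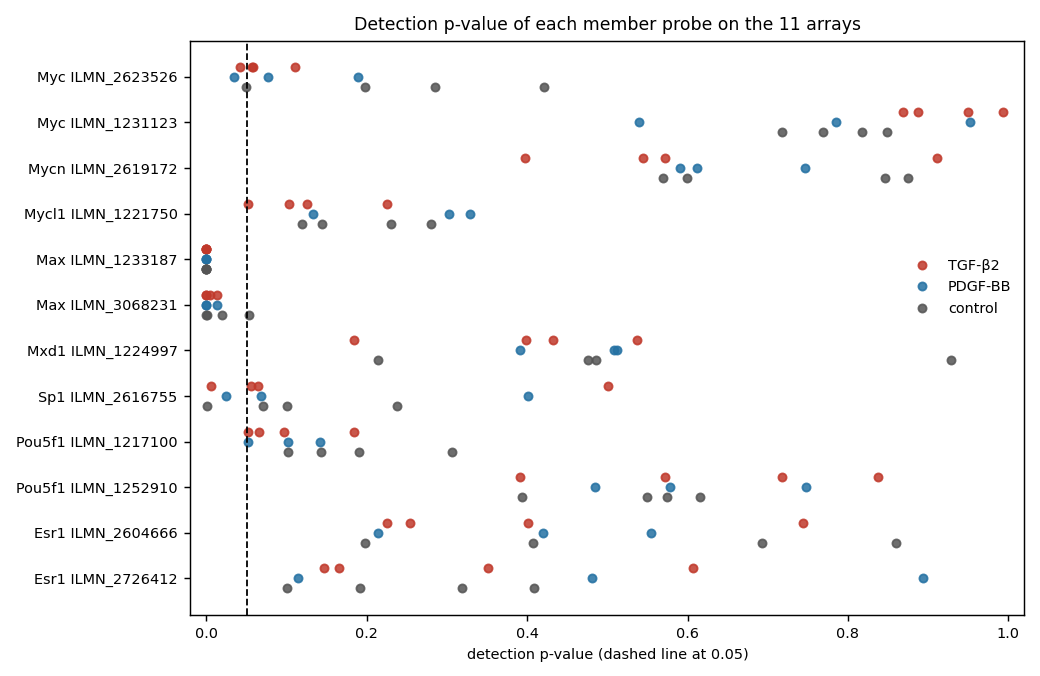
Detection p-value (x axis, no unit) of each of the 12 member probes (rows) on the 11 arrays, with a dashed line at 0.05. Points stand for arrays of the TGF-β2, PDGF-BB and control groups. Both Max probes lie at or near 0, while the 8 probes never detected lie between 0.0514 and 0.994.

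Max, the partner that MYC, MYCN and MYCL need for DNA binding, was the 1 member detected on every array, with a detection p-value listed at 0 on all 11. Its gene lies at 76937269 to 76962323 on chromosome 12. With probe ILMN_1233187, the normalized signal was 1427, 1699, 1346 and 1314 on the TGF-β2 arrays 1 to 4. It was 1546, 1187 and 1259 on the PDGF-BB arrays 1 to 3, and 1170, 1408, 1351 and 1093 on the control arrays 1 to 4. The ranges of the groups overlapped, and TGF-β2 2 and PDGF-BB 1 were the highest arrays. The means were 1446 ± 175 in the TGF-β2-treated group (SD, n = 4), 1331 ± 190 in the PDGF-BB-treated group (SD, n = 3) and 1255 ± 149 in the control group (SD, n = 4). The median standard error over the beads of this probe was 3.42% of its signal.

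The second Max probe, ILMN_3068231, was dim. Its normalized signal was 66.0, 68.6, 88.8 and 99.97 on the TGF-β2 arrays, 73.5, 76.0 and 93.2 on the PDGF-BB arrays, and 76.6, 47.4, 31.5 and 92.8 on the control arrays, in the same order of replicates. The single array without detection was control 3, with a detection p-value of 0.0526, and control 3 and control 2 lay below all other arrays. Its bead error was 17.2% of its signal. The probes did not rank the arrays alike. Over the 11 arrays, which share the same RNA for both probes, Pearson's r of the log2 values was -0.33, and both probes lay on the same side of their mean on 1 of 11 arrays.

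The probes whose log2 values most resembled Max ILMN_1233187 over the 11 arrays, among 12131 tested probes of other named genes, were those of Bex3 (r = 0.97), Rps13 (r = 0.96) and Dgkz (r = 0.95). These values describe 11 arrays that also share chip and array set.

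The 2 probes of Myc differed in detection and in the direction of their differences. The gene lies at 61985341 to 61990361 on chromosome 15. With ILMN_2623526, the normalized signal was 33.1, 36.2, 27.3 and 20.6 on the TGF-β2 arrays 1 to 4, 47.8, 24.8 and 13.8 on the PDGF-BB arrays 1 to 3, and 29.2, 14.3, 1.16 and 6.83 on the control arrays 1 to 4. Detection was reached only on array set 1, with p-values of 0.0414 for TGF-β2 1, 0.0338 for PDGF-BB 1 and 0.0489 for control 1. Control 1 lay within the range of the TGF-β2 arrays, and the 3 other control arrays lay below it. The means were 29.3 ± 6.85 in the TGF-β2-treated group (SD, n = 4), 28.8 ± 17.4 in the PDGF-BB-treated group (SD, n = 3) and 12.9 ± 12.1 in the control group (SD, n = 4). The signal was higher than the control of the same array set in 4 of 4 sets with TGF-β2 and in 3 of 3 sets with PDGF-BB. The bead error was 38.7% of the signal, and 2 of the 3 arrays with detection, TGF-β2 1 and PDGF-BB 1, also exceeded the signal of 30 that the study required of cell transcripts.

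With ILMN_1231123, all signals of Myc were below 0 and the detection p-values were 0.539 to 0.994. The signal was -14.9, -24.1, -15.4 and -20.7 on the TGF-β2 arrays, -11.01, -2.89 and -19.2 on the PDGF-BB arrays, and -8.34, -10.2, -13.8 and -12.4 on the control arrays. It was lower with TGF-β2 than in the control of the same array set in 4 of 4 sets, the reverse of the other probe, and the TGF-β2 and control arrays did not overlap. Because both groups were below background, no fold is given. It was the 1 of 12 member probes without overlap between TGF-β2-treated and control arrays, where 1.81% of all probes of the array had none. Between PDGF-BB-treated and control arrays 0 of 12 member probes lacked overlap (4.52% of all probes), as did 0 of 12 between TGF-β2- and PDGF-BB-treated arrays (4.99% of all probes). The correlation between the Myc probes over the 11 arrays was -0.01.

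The same sign in all 4 array sets was seen between TGF-β2-treated and control cells for 4 of the 12 member probes, against 12.8% of all probes. They were both Myc probes, Mycl1 and Pou5f1 ILMN_1217100, and 3 of the 4 were never detected. Between PDGF-BB-treated and control cells, 1 of 12 member probes (Myc ILMN_2623526) kept its sign in all 3 sets, against 26.9% of all probes, and between TGF-β2- and PDGF-BB-treated cells 3 of 12 did (Mycl1, Myc ILMN_1231123 and Sp1), against 24.4%. An exact two-sided sign-flip test of 1 probe cannot go below p = 0.125 with 4 sets or p = 0.25 with 3 sets.

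**Figure D2:**
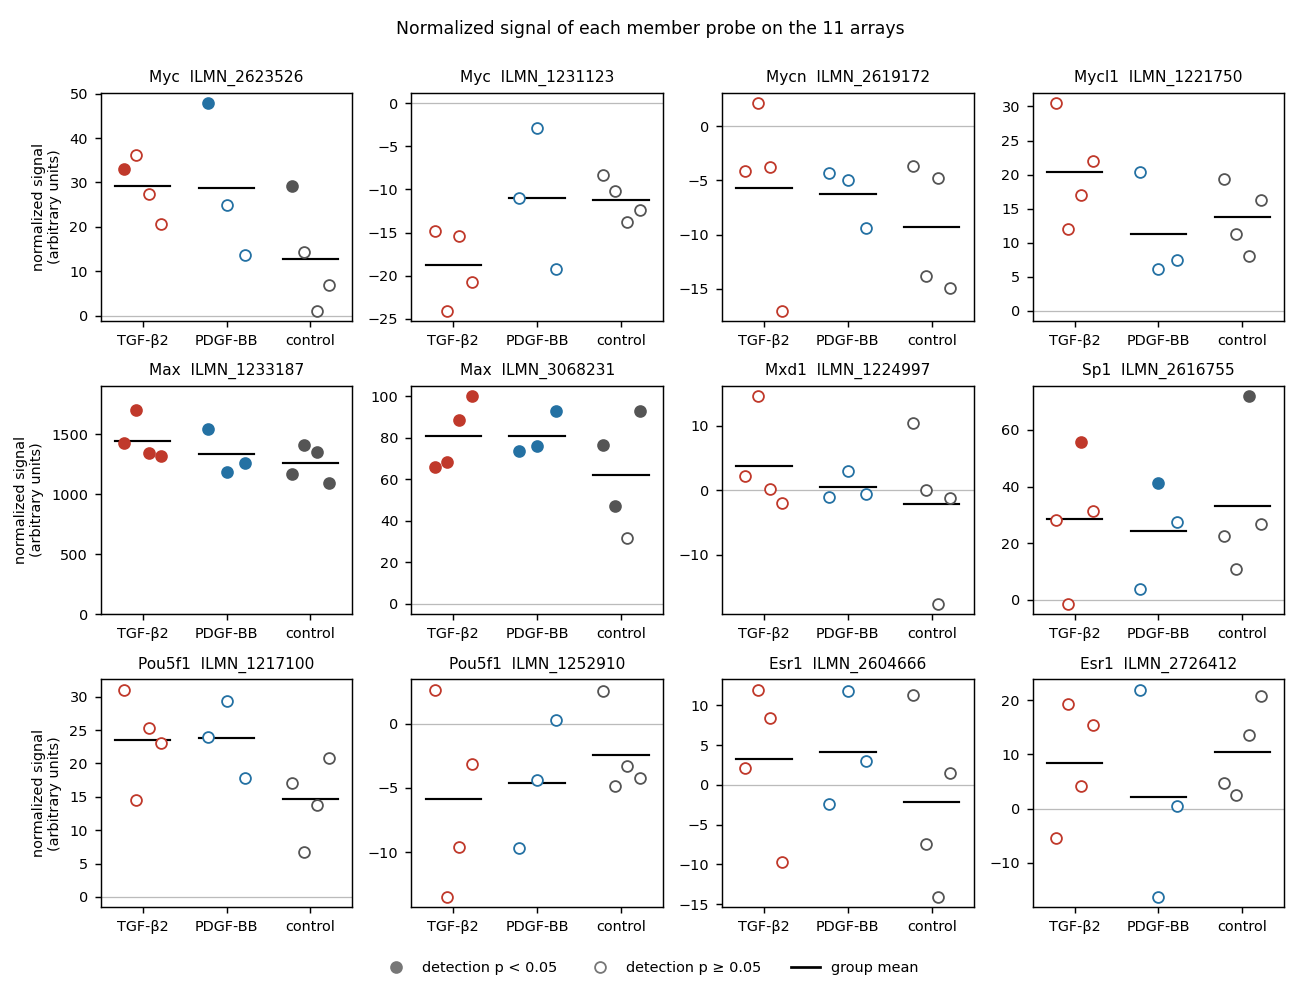
Normalized signal (y axis, arbitrary units, own linear scale in each panel) of the 12 member probes in the TGF-β2, PDGF-BB and control groups. Each point is an array, filled where the detection p-value was under 0.05, and the line is the group mean. The points of Max ILMN_1233187 are all filled, between 1093 and 1699, while 8 panels hold open points only.

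Sp1, at 102406316 to 102436404 on chromosome 15, was also detected on only 3 arrays. The normalized signal of ILMN_2616755 was 28.0, -1.36, 55.8 and 31.3 on the TGF-β2 arrays 1 to 4, 3.90, 41.3 and 27.7 on the PDGF-BB arrays 1 to 3, and 22.5, 10.95, 71.8 and 26.9 on the control arrays 1 to 4. The 3 arrays with detection were those of array set 3, with p-values of 0.00627 for TGF-β2 3, 0.0238 for PDGF-BB 2 and 0.00125 for control 3. All 3 groups had their highest array in this set, and the ranges of the groups overlapped. The means were 28.4 ± 23.4 in the TGF-β2-treated group (SD, n = 4), 24.3 ± 18.9 in the PDGF-BB-treated group (SD, n = 3) and 33.03 ± 26.7 in the control group (SD, n = 4). The bead error was 32.8% of the signal.

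Myc and Sp1 were each detected on 1 array of every group, and for each gene these 3 arrays lay in 1 array set. For Myc the threshold was close, since TGF-β2 2 and TGF-β2 3 had detection p-values of 0.0564 and 0.0576, and TGF-β2 2 was brighter than TGF-β2 1. Of the 485 probes of the array that were detected on exactly 3 arrays, 181 (37.3%) had 1 in each group. All 3 lay in 1 array set for 24 (4.95%), 8 of them in set 1 and 14 in set 3. On the log2 scale after background correction, Sp1 differed between chip 2 and chip 1 by 0.69 (95% interval 0.28 to 1.09) and Myc ILMN_2623526 by -0.41 (95% interval -0.66 to -0.16), with the treatment groups in the model. Sp1 met the filter for testing only through arrays of chip 2, and Myc only through arrays of chip 1. Their chip and array set values therefore rest on the detections that let them in, and are given as description only. Neither passed the threshold of limma after Benjamini-Hochberg adjustment (adjusted p = 0.0685 for Sp1 and 0.0775 for Myc). The Max probes differed by -0.20 and 0.16 (adjusted p = 0.274 and 0.602). Of the 4 member probes tested, 0 were called between the chips, where 355 of 12894 tested probes (2.75%) were, and 2 of 4 had an unadjusted p under 0.05, as had 24.9% of all tested probes. Of the 355 calls, 0 were left without control 2, TGF-β2 3 or PDGF-BB 1, and 26 to 975 probes were called without any 1 of the other 8 arrays. An F test across the 4 array sets, added after the values were seen, called 0 of 4 member probes and 0 of 12894 probes (0.0%). It gave adjusted p = 0.0897 for Sp1 and 0.179 for Myc, and 2 of 4 member probes had an unadjusted p under 0.05, beside 22% of all tested probes. Chip, hybridization and flask cannot be told apart here.

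**Figure D3:**
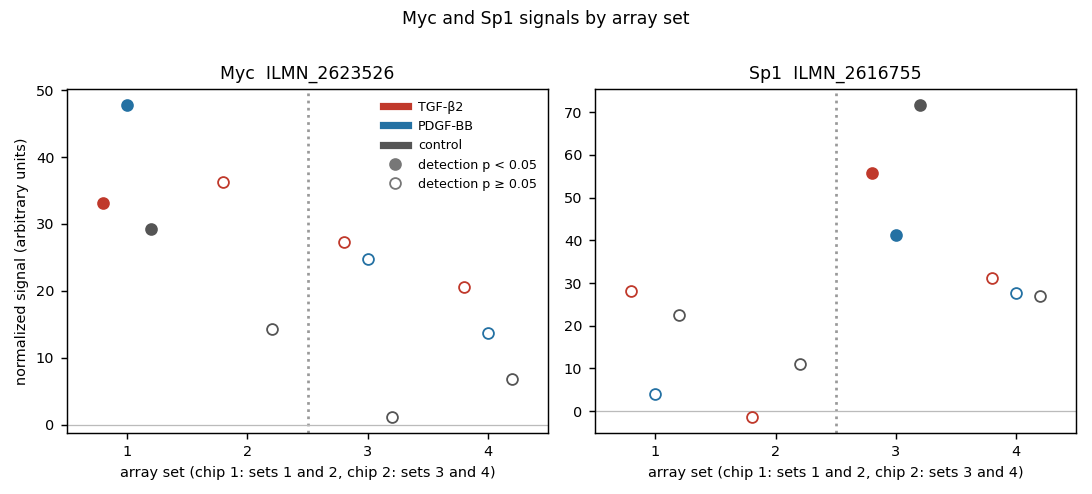
Normalized signal (y axis, arbitrary units) of Myc ILMN_2623526 and Sp1 ILMN_2616755 by array set (x axis), with the TGF-β2, PDGF-BB and control arrays side by side and a dotted line between the chips. Filled points have a detection p-value under 0.05: those of Myc lie in set 1 (29.2 to 47.8) and those of Sp1 in set 3 (41.3 to 71.8).

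Differences between the treatment groups were tested for the 4 member probes with detection on at least 3 arrays, together with all such probes of the array. Between TGF-β2-treated and control cells, limma called 0 of 4 member probes and 0 of 12894 tested probes (0.0%). At an unadjusted p under 0.05 there were 0 member probes and 261 of all tested probes (2.02%). The log2 fold change of Myc ILMN_2623526 was 0.39 (95% interval -0.02 to 0.80, unadjusted p = 0.0607). With detection on 1 of 4 arrays in each of these groups, and a control mean below the lowest signal with detection, its size is not a measured fold. Sp1 was likewise detected on 1 array of each group. The Myc value was 0.73 on the authors' normalized signals and 0.22 with an offset of 50. Max had 0.20 (-0.12 to 0.52) and 0.33 (-0.14 to 0.79) with its 2 probes, and Sp1 had -0.08 (-0.73 to 0.58). Max ILMN_1233187 had 0.12 without TGF-β2 2, and ILMN_3068231 had 0.14 without control 3 and 0.49 without control 4. All 4 adjusted p-values were 1.0.

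Between PDGF-BB-treated and control cells, 0 of 4 member probes and 0 of 12894 tested probes (0.0%) were called by limma, with 0 and 412 (3.20%) at an unadjusted p under 0.05. Myc ILMN_2623526 had a log2 fold change of 0.36 (95% interval -0.08 to 0.80), Max had 0.08 (-0.26 to 0.42) and 0.34 (-0.16 to 0.84), and Sp1 had -0.17 (-0.88 to 0.54). Myc had 0.66 on the authors' normalized signals, 0.20 with an offset of 50 and 0.049 with array weights, again with detection on 1 array of each group. Max ILMN_3068231 had 0.15 without control 3, and Max ILMN_1233187 ran from -0.031 without PDGF-BB 1 to 0.15 without PDGF-BB 2. Both comparisons share the control arrays, so their like values for Myc are not independent.

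Between TGF-β2- and PDGF-BB-treated cells, 0 of 4 member probes and 0 of 12894 tested probes (0.0%) were called by limma, with 0 and 662 (5.13%) at an unadjusted p under 0.05. The differences were 0.03 for Myc (95% interval -0.41 to 0.47), 0.12 and -0.01 for Max (-0.22 to 0.46 and -0.51 to 0.49) and 0.09 for Sp1 (-0.62 to 0.80). With the array set in the model, the unadjusted p of Myc was 0.0139 with TGF-β2 and 0.0236 with PDGF-BB, each against control, and that of Sp1 with PDGF-BB was 0.0431 for a log2 fold change of -0.36. In that model 515 of all 12894 tested probes had an unadjusted p under 0.05 with TGF-β2 and 1127 with PDGF-BB, each against control. The adjusted p-values of these 3 were 1.0, 0.551 and 0.559, so no call was gained. The intervals of Max leave room for log2 changes of up to 0.52 with ILMN_1233187 and 0.84 with ILMN_3068231. Those of Sp1 run to 0.88 in size, but with detection on only 3 arrays this is not a bound on its fold. A missing call does not show equal levels.

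**Figure D4:**
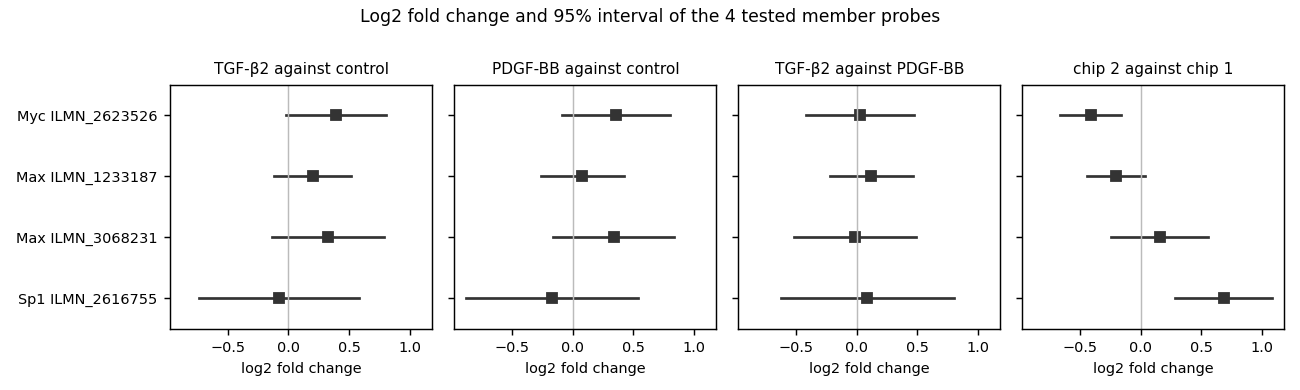
Log2 fold change (x axis) of the 4 tested member probes (rows), with bars for the 95% interval, in the 3 comparisons of groups and between chips. All bars of the group comparisons include 0. Those of Myc (-0.41) and Sp1 (0.69) between chips do not, with limma adjusted p-values of 0.0775 and 0.0685. Each of these probes met the filter for testing only through arrays of the chip where it was higher. The chip values of both are therefore description only.

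The remaining members had signal only at the level of background. Mycl1, a paralogue of Myc, had 6.14 to 30.5 signal units over the 11 arrays, with its lowest detection p-value of 0.0514 on TGF-β2 1. Its signal was 30.5, 12.0, 17.0 and 21.9 on the TGF-β2 arrays, 20.4, 6.14 and 7.40 on the PDGF-BB arrays, and 19.3, 11.3, 8.01 and 16.3 on the control arrays. The groups overlapped. Mycn ran from -17.0 to 2.09 and its detection p-value from 0.397 to 0.911. Mxd1, the repressor partner of MAX, ran from -17.6 to 14.5 with detection p-values of 0.184 to 0.929.

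Pou5f1 came closest to detection with probe ILMN_1217100, with its lowest detection p-value of 0.0514 reached on TGF-β2 1 and again on PDGF-BB 2. The signal of this probe was 31.1, 14.5, 25.4 and 23.0 on the TGF-β2 arrays, 24.0, 29.4 and 17.8 on the PDGF-BB arrays, and 17.0, 6.78, 13.8 and 20.8 on the control arrays, with overlap between the groups. The second probe, ILMN_1252910, ran from -13.5 to 2.66 and its detection p-value from 0.391 to 0.837. Pearson's r between these probes was 0.14 over the 11 arrays. The Esr1 probes ran from -14.1 to 12.0 (ILMN_2604666, detection p-values 0.198 to 0.860) and from -16.3 to 21.99 (ILMN_2726412, 0.1003 to 0.893). Their correlation was -0.34, and they lay on the same side of their mean on 2 of 11 arrays. No level is read from these signals, since no array detected them.

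The study accepted cell transcripts with a signal above 30 and detection at p under 0.05. By these thresholds, 2 member probes passed on every array of the TGF-β2-treated group, 2 on every array of the PDGF-BB-treated group and 1 on every array of the control group. Both were probes of Max, and ILMN_3068231 missed the control group through control 3 alone. No probe of Myc, Sp1, Pou5f1 or Esr1 passed on every array of a group. How many of all probes passed both thresholds by group was not counted. By detection alone, 1 of the 12 member probes (8.33%) and 38.7% of all probes passed on all 11 arrays.

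Each listed gene was followed with its brightest probe, so its detection is not set against that of all probes, of which 38.7% were detected on all 11 arrays. Of the partners in the MAX network, 5 of 8 genes with a probe were detected on all 11 arrays, namely Mxi1, Mxd3, Mxd4, Mlx and Mlxipl. Mxd4, a further MAX-binding repressor, had 217 ± 73.7 signal units in TGF-β2-treated cells, 182 ± 24.0 in PDGF-BB-treated cells and 167 ± 39.4 in control cells (SD, n = 4, 3 and 4). Mlxipl, which encodes the glucose-responsive factor ChREBP, had 426 ± 118, 347 ± 24.5 and 458 ± 102 in the same order of groups. Neither was called, and their log2 fold changes of lowest p were 0.30 for Mxd4 (TGF-β2 against control) and -0.36 for Mlxipl (PDGF-BB against control).

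Of 31 MYC target genes with a probe, 29 were tested, 27 were detected on all arrays and 0 were called in any comparison. With TGF-β2 against control, 12 lay above 0 and 17 below (median log2 fold change -0.03, beside 0.00 over all tested probes). With PDGF-BB against control, 15 lay above and 14 below (median 0.04, beside 0.01), and with TGF-β2 against PDGF-BB 11 lay above and 18 below (median -0.05, beside -0.02). At an unadjusted p under 0.05 there were 0, 1 and 4 of the 29 in these comparisons, beside 2.02%, 3.20% and 5.13% of all tested probes. Eif4a1, which encodes the helicase of translation initiation, had 16090 ± 978 signal units in TGF-β2-treated cells, 19941 ± 372 in PDGF-BB-treated cells and 16406 ± 773 in control cells, with a log2 fold change of 0.29 for PDGF-BB against control (unadjusted p = 0.0376, adjusted p = 1.0). Srm, the gene of spermidine synthase, had 1955 ± 411, 2690 ± 509 and 2076 ± 149, and Cdc25a, a phosphatase gene of the cell cycle, 420 ± 152, 256 ± 19.4 and 355 ± 70.6 in the same order. Their log2 fold changes for TGF-β2 against PDGF-BB were -0.47 for Srm and 0.63 for Cdc25a (adjusted p = 0.928 and 0.870). Of 34 start windows of MYC target genes, 11 (32.4%) held the E-box printed above for Max.

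Of 12 cofactors and turnover factors of MYC with a probe, 11 were tested, 11 were detected on every array and 0 were called. The median log2 fold change was 0.00 with TGF-β2 against control, 0.09 with PDGF-BB against control and -0.12 with TGF-β2 against PDGF-BB. Over all tested probes these medians were -0.0028, 0.0106 and -0.0228. An unadjusted limma p under 0.05 was seen for 0, 1 and 2 of the 11, beside 2.02%, 3.20% and 5.13% of all tested probes. Fbxw7, which encodes a ubiquitin ligase subunit that marks MYC for degradation, had 198 ± 40.8 signal units in TGF-β2-treated cells, 112 ± 31.8 in PDGF-BB-treated cells and 193 ± 68.9 in control cells. Its log2 fold change was -0.69 with PDGF-BB against control (unadjusted p = 0.0179, adjusted p = 1.0) and 0.76 with TGF-β2 against PDGF-BB (unadjusted p = 0.0108, adjusted p = 0.772). Skp2, the gene of another MYC-binding ubiquitin ligase subunit, had 0.32 with TGF-β2 against PDGF-BB (adjusted p = 0.945).

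Of the relatives of Sp1, 10 of 17 SP and KLF genes with a probe were tested and 0 were called. The median log2 fold change was 0.01 with TGF-β2 against control (5 above 0, 5 below), -0.08 with PDGF-BB against control (3 above, 7 below) and 0.11 with TGF-β2 against PDGF-BB (6 above, 4 below). With all 13 tested probes of these genes the medians were 0.08, -0.26 and 0.20. Klf9, a zinc finger repressor gene known as a glucocorticoid target, had 1957 ± 416 signal units in TGF-β2-treated cells, 1055 ± 129 in PDGF-BB-treated cells and 1879 ± 674 in control cells. Its log2 fold change was -0.76 with PDGF-BB against control (unadjusted p = 0.0121, adjusted p = 1.0) and 0.87 with TGF-β2 against PDGF-BB (unadjusted p = 0.00560, adjusted p = 0.755). Klf7 (0.81, adjusted p = 0.772) and Klf6 (1.06, adjusted p = 0.980) had values of the same sign in the second of these comparisons. Of 10 genes with SP1-dependent promoters and a probe, 5 were tested and 0 called, with medians of -0.07, -0.18 and 0.10 in the 3 comparisons. With all 10 tested probes of these genes they were 0.06, -0.07 and -0.0057, so that 2 of the 3 signs turned. Vegfa, the gene of an endothelial growth factor, had 724 ± 213 signal units in TGF-β2-treated cells, 725 ± 127 in PDGF-BB-treated cells and 1024 ± 233 in control cells. Its log2 fold changes against control were -0.51 with TGF-β2 (unadjusted p = 0.0345) and -0.48 with PDGF-BB (unadjusted p = 0.0585), each with an adjusted p of 1.0.

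Of 13 pluripotency partners of Pou5f1, 8 were detected on no array, Sox2 and Lin28a among them, and 3 were detected on all. These were Nanog, Klf4 and Dppa5a. Nanog had 91.5 ± 22.6 signal units in TGF-β2-treated cells, 57.5 ± 17.8 in PDGF-BB-treated cells and 91.3 ± 27.8 in control cells, and no comparison called it (log2 fold change -0.49 with PDGF-BB against control, adjusted p = 1.0). Nanog has close copies in the mouse genome, and the probe was not checked against them. Of the POU family, 6 of 8 genes with a probe were detected on no array and only Pou4f1 was tested. Of 15 relatives, cofactors and targets of the oestrogen receptor with a probe, 9 were tested and 0 called, with medians of -0.01, 0.01 and -0.02 in the 3 comparisons. Ncoa3, a nuclear receptor coactivator gene, was detected on 4 arrays and had 41.1 ± 22.8 signal units in TGF-β2-treated cells, 13.0 ± 19.0 in PDGF-BB-treated cells and 21.99 ± 15.3 in control cells. Since the PDGF-BB and control means lay below the lowest signal with detection, no fold is given, and the adjusted p for TGF-β2 against PDGF-BB was 0.967. Srf, the partner of ELK1 at serum response elements, was detected on all arrays and had 0.12 with TGF-β2 and 0.07 with PDGF-BB, each against control.

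**Figure D5:**
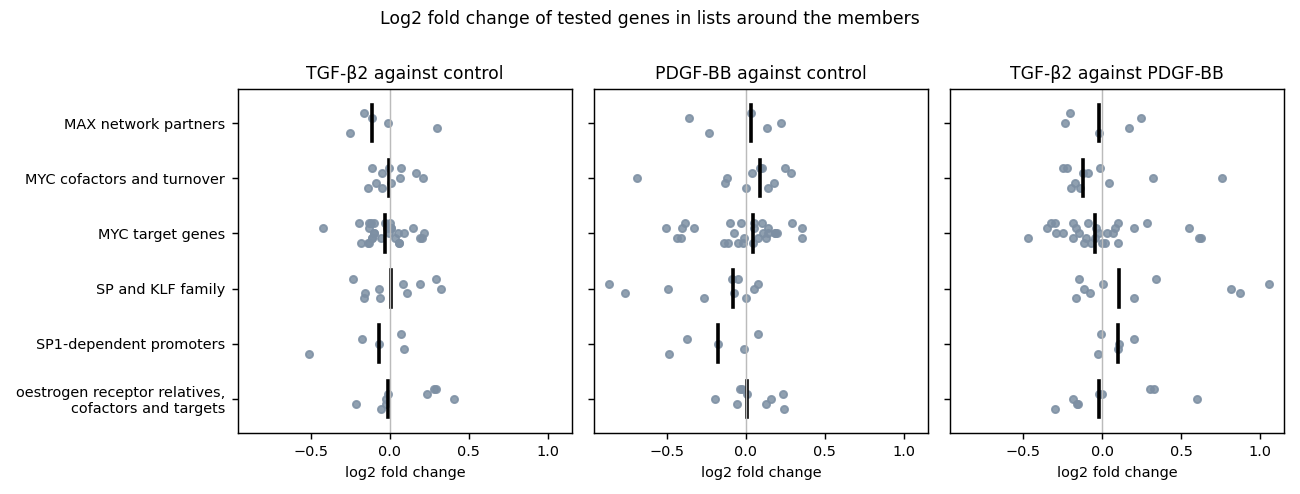
Log2 fold change (x axis) of the tested genes of 6 gene lists (rows) in the 3 comparisons. Points are genes with 1 probe each, and black bars are list medians, between -0.18 and 0.11. No gene was called.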

How the data were processed

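Total RNA of the cells had been amplified to biotinylated cRNA, hybridized to Illumina beadchips and exported from GenomeStudio, per the labels. The authors deposited a background-subtracted signal intensity per probe and array, its bead standard error, the bead count and a detection p-value against negative control beads. The authors also deposited intensities normalized with the cubic spline algorithm on a linear scale, which are the normalized signals given. Members and gene lists were chosen with earlier results of these data known. Every member probe was named, with up to 3 genes of lowest unadjusted p per list and comparison. Each listed gene entered with its probe of highest mean signal. Gene names are those of the platform annotation (1 symbol for 23978 of 25697 probes), and gene positions are of GRCm38.p6.

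Tests used limma 3.58.1 in R 4.3.3. Non-normalized intensities were corrected and quantile-normalized with neqc (offset 16, log2), and a model with a mean for each group took in the 11 arrays. Probes detected (p under 0.05) on 3 or more arrays were tested, and an adjusted p under 0.05 was a call. The steps were tested on simulated data. The simulation of the group test held no chip or array set differences, so it does not cover these. P-values measure the spread between flasks of 1 cell line. Same-numbered control and TGF-β2 arrays had r = 0.191, 0.400, 0.504 and 0.371 between their deviations from group means. These arrays also share chip and array set. Same-numbered PDGF-BB and control arrays had r = -0.138, -0.442 and 0.203, and only the first of these pairs shares an array set. PDGF-BB and control arrays of the same array set had r = -0.138, 0.243 and 0.053 in sets 1, 3 and 4. Control 2 and PDGF-BB 1, on the same chip but with different numbers, had r = 0.549. The labels give no pairing of flasks, so the main model did not take the numbers as pairs. Alternatives covered normalization, filters, blocks and left-out arrays. Python 3.11.15 was used for counts.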

Additional observations from a re-analysis of the deposited data

How the results depend on the processing

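The count of 0 called member probes held in the 3 group comparisons under every alternative run, with the replicate block or its paired version on TGF-β2 and control arrays alone included (Myc 0.39, adjusted p = 0.827 there). Between chips, 1 member probe was called without background correction (Sp1, 0.46, adjusted p = 0.0481). The share of all probes called in that setting is not given here, so nothing is read from this count. Sp1 met the filter for testing only through arrays of chip 2, so this call rests on the detections that let it in. Leaving out 1 array removed all 355 calls between chips in 3 of 11 cases (control 2, TGF-β2 3 or PDGF-BB 1), and gave 26 to 975 in the others. Without an array that detected it, Myc or Sp1 missed the filter and was not tested.

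The cell filter kept 1 probe in each treated group at a detection p-value under 0.01 or a signal above 100, against 2. Required on at least 1 array, it kept 4 with TGF-β2, 4 with PDGF-BB, 3 in control and 3 in all groups, and on at least 2 arrays 2 in control and 2 in all groups. Leaving out single arrays gave 1 to 2 in control and 1 to 2 in all groups, the 2 without control 3.

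Signs turned only for differences within their standard error. With 1 array left out, Sp1 ran from -0.24 to 0.15 with TGF-β2 against control (0.15 without TGF-β2 2), from -0.33 to 0.074 with PDGF-BB against control and from -0.15 to 0.32 with TGF-β2 against PDGF-BB (0.074 and -0.15 without PDGF-BB 1). Max ILMN_1233187 ran from -0.031 (without PDGF-BB 1) to 0.15 with PDGF-BB against control. With TGF-β2 against PDGF-BB, Myc ran from -0.14 to 0.097, below 0 without TGF-β2 2, PDGF-BB 2 or PDGF-BB 3, and Max ILMN_3068231 from -0.098 to 0.071, above 0 without TGF-β2 1, TGF-β2 2 or PDGF-BB 3. In that comparison Myc had -0.038 with the chip block, -0.26 on chip 1 alone and -0.0010 with the array set block, and Max ILMN_3068231 had 0.015 with the chip block, 0.12 on chip 2 alone and 0.054 with the array set block. Over all alternatives Myc ran from 0.22 to 0.73 with TGF-β2 against control and from 0.049 to 0.66 with PDGF-BB against control. With all probes of a gene, the median of the SP1-dependent list became 0.06 with TGF-β2 against control (-0.07 with 1 probe per gene) and that of the SP and KLF family -0.26 with PDGF-BB against control (-0.08).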
